A study of Homo sapiens with 4 samples.

Results

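The human mitochondrial genome is a circle of 16569 bases that carries 37 genes in GENCODE release 44: 13 for mRNAs, 2 for rRNAs and 22 for tRNAs. Its genes were taken here as all genes whose name starts with MT-, and 15 of the 50868 genes listed in the count tables met that rule. These were the 13 mRNA genes and the 2 rRNA genes. The 22 tRNA genes, which are 59 to 75 bases long, were not analysed here. All 15 genes had the start and end of GENCODE release 44 on GRCh38, and all 15 had a mean FPKM (counts scaled by gene length and by the library's total) of at least 1 over the libraries.

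Mitochondrial DNA is transcribed from both strands into long RNAs that span many genes. The polymerase POLRMT does this with TFAM, which bends and packages the DNA, and TFB2M, which opens the promoter. The long RNAs are then cut, mostly at the tRNAs that lie between the other genes, and the level of each mRNA afterwards depends on its own stability as well as on transcription. The rRNAs form the core of the mitochondrial ribosome, and every mRNA encodes a subunit of the respiratory chain or of ATP synthase, whose remaining subunits come from nuclear genes. T-cell activation is known to be accompanied by growth of mitochondria and of respiration.

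The cells were wild-type Jurkat cells, an established T lymphoblast line from a human T-cell leukemia, treated for 24 h in 4 ways. The first culture received DMSO, the solvent, and the next received 0.5 μM JQ1, an inhibitor of the BET bromodomain proteins that bind acetylated chromatin. The other cultures received PHA at 150 ng/ml, together with DMSO or with 0.5 μM JQ1. PHA is a lectin of beans that cross-links surface glycoproteins and so activates T cells. RNA from each condition gave 1 sequenced library, so there were 4 libraries and no replicates. A single cell line was used, and primary T cells were not part of these libraries.

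Total counts per library lay between 18620954 and 19685401. All 10 T lymphoblast markers examined, among them CD3E, CD2 and LCK, had more than 3 counts in every library, with a summed FPKM of 653 in DMSO, 517 in JQ1, 923 in DMSO + PHA and 594 in JQ1 + PHA. Much of the higher sum in DMSO + PHA was TRAC, with 16.7, 8.56, 221 and 50.1 FPKM in the same order. CD3E and LCK had log2 ratios of -0.12 each with PHA in DMSO, and the other T lymphoblast markers lay above 0. Beside TRAC at 3.73, CD5 was at 0.74, CD2 at 0.40, CD247 at 0.31 and TRBC1 at 0.18. CD3G was at 0.12, CD3D at 0.11 and CD7 at 0.06. The T-cell markers differed with JQ1, since 9 of 10 were lower both without and with PHA. CD3E was at -1.13 and -1.16 on the log2 scale, CD2 at -2.31 and -2.83 and LCK at -1.85 and -1.78. TRBC1, the exception, made up much of the sum, with 363 FPKM in JQ1. The part of this in the mitochondrial values was not tested. The 12 markers of B, myeloid, erythroid, epithelial and fibroblast cells summed to 1.67 to 8.02 FPKM, and 5 of them had no count in any library. Most of that sum was the B-cell marker CD79A, with 7.48 FPKM in DMSO, 1.06 in JQ1, 6.33 in DMSO + PHA and 1.01 in JQ1 + PHA. Conditions could not be tested against each other, since none had a replicate. Intervals given below are 95% intervals that cover counting error only, and the spread between cultures is unknown. Because each mitochondrial gene collects 3437 counts or more in every library, such an interval is narrow and says little about whether a difference would recur in another culture.

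The 15 genes held between 6.27% and 7.07% of all counts, and 7 of the 10 genes with the most counts were mitochondrial in every library. Their share was 6.27% (exact interval 6.26 to 6.28) in DMSO and 6.73% (6.72 to 6.74) in JQ1. With PHA it was 6.42% (6.40 to 6.43) in DMSO + PHA and 7.07% (7.06 to 7.09) in JQ1 + PHA. The share was thus higher in each JQ1 library than in its DMSO partner. In bulk RNA, a change in RNA per cell, in the number of mitochondria and in the cells that make up the culture cannot be told apart.

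The mRNAs summed were higher and the rRNAs lower in the JQ1 libraries. The 13 mRNAs together held 5.63% of all counts in DMSO, 6.23% in JQ1, 5.61% in DMSO + PHA and 6.53% in JQ1 + PHA. The 2 rRNAs held 0.640%, 0.503%, 0.809% and 0.543% in the same order. As a ratio of counts, rRNA to mRNA was 0.114 in DMSO, 0.0809 in JQ1, 0.144 in DMSO + PHA and 0.0831 in JQ1 + PHA. The DMSO + PHA library had the highest ratio, and the 2 JQ1 libraries had the lowest ones whether PHA was present or not. The sources name different library kits and do not settle whether poly(A) RNA was selected, and the part of this in the rRNA level was not tested.

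**Figure D1:**
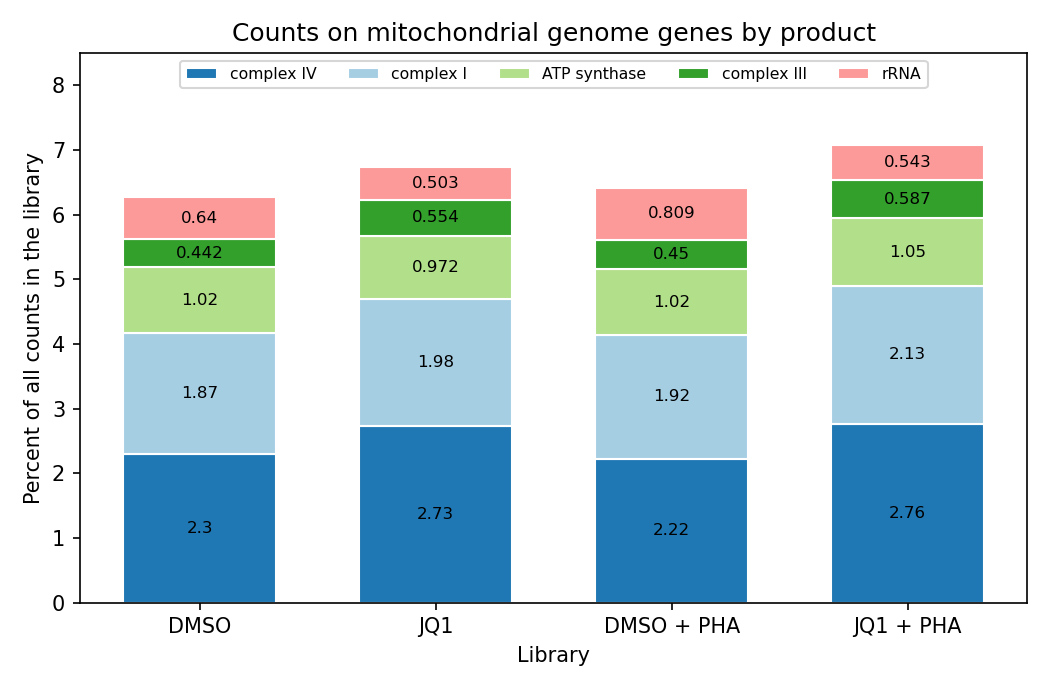
Share of all counts in each library that fell on mitochondrial genome genes, in percent, stacked by the complex the product belongs to, with 1 library per condition. The whole bar is 6.27% in DMSO, 6.73% in JQ1, 6.42% in DMSO + PHA and 7.07% in JQ1 + PHA, and the rRNA segment at the top is narrowest in the JQ1 libraries.

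Per length, levels within this genome spanned a wide range, although 14 of the 15 genes are coded on 1 strand. The highest FPKM was 18.6 times the lowest in DMSO, 26.4 times in JQ1, 31.4 times in DMSO + PHA and 41.1 times in JQ1 + PHA. The widening came mostly from the lowest gene, MT-ND6. Among the 12 mRNA genes coded on the heavy strand alone, the highest FPKM was 15.2, 16.3, 18.7 and 19.5 times the lowest in the same libraries.

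The order of the levels hardly differed between libraries. MT-ATP8, MT-ATP6, MT-CO3, MT-ND4L, MT-ND4, MT-RNR1, MT-ND3 and MT-ND6 had the same rank in all 4, which made 8 of 15 genes. MT-ATP8 was always the highest, with 14070 FPKM in DMSO, 13603 in JQ1, 13751 in DMSO + PHA and 14455 in JQ1 + PHA. MT-ATP6 was always second, at 10132 to 11015 FPKM, and MT-ND3 was always next to last, at 736 to 924 FPKM. MT-CO1 and MT-CO2 changed places, as did MT-ND5 with MT-ND1 and MT-ND2, and MT-CYB with MT-RNR2. The counting intervals of neighbours in the order overlapped in only 2 places, MT-CO2 and MT-CO3 in DMSO, and MT-CO3 and MT-ND4L in JQ1 + PHA.

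**Figure D2:**
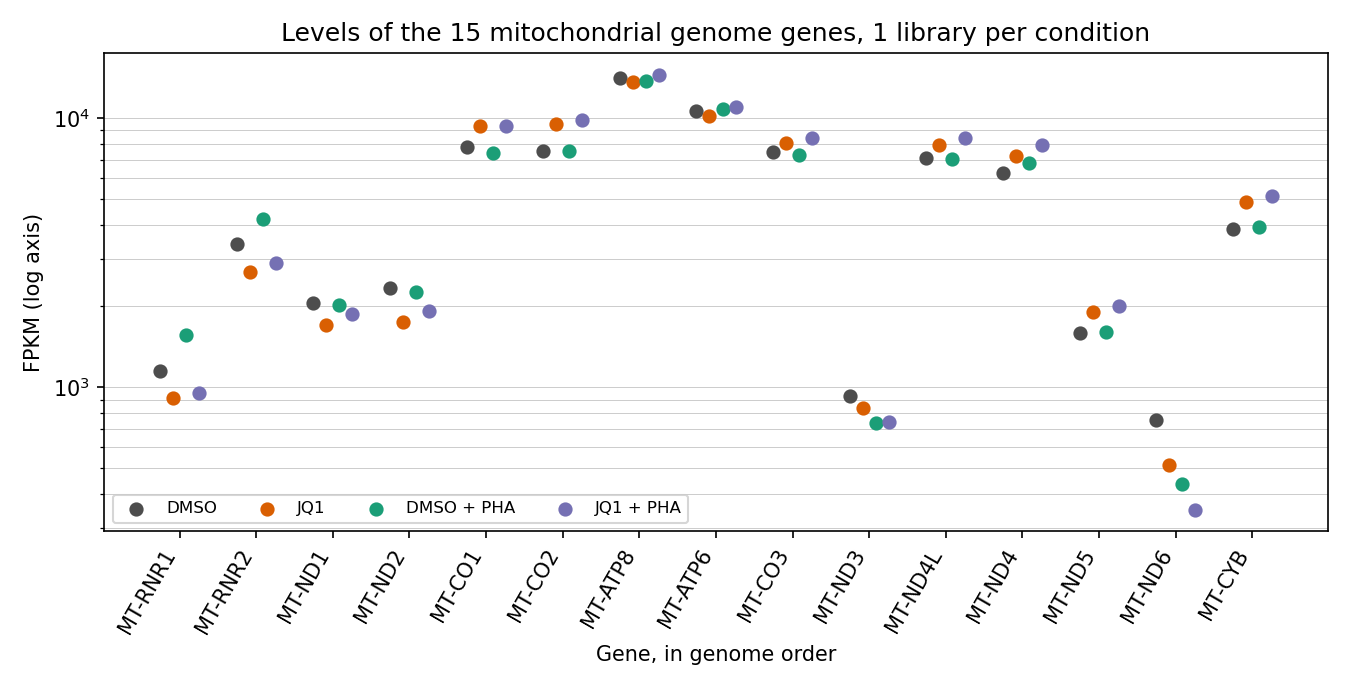
FPKM on a log axis for the 15 genes in genome order, with 1 point per library and 1 library per condition. MT-ATP8 is highest and MT-ND6 lowest in every library, and the 4 MT-ND6 points run from 755 in DMSO down to 352 in JQ1 + PHA.

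Both ATP synthase genes lie on a shared mRNA, as do MT-ND4L and MT-ND4, and the reading frames within each pair overlap. The overlap is shown because a read within it belongs to both genes, and how such reads were counted is not given in the sources used here. MT-ATP8 (chrM:8366-8572, strand +) and MT-ATP6 (chrM:8527-9207, strand +) share 46 bases, in capitals in the line for ATP8/ATP6, from chrM:8507-8592 of GRCh38. MT-ND4L (chrM:10470-10766, strand +) and MT-ND4 (chrM:10760-12137, strand +) share 7 bases, in capitals in the line for ND4L/ND4, from chrM:10740-10786. Each line reads 5′ to 3′ on the plus strand.
ATP8/ATP6: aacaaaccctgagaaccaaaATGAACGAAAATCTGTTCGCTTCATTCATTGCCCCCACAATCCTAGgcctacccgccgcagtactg
ND4L/ND4: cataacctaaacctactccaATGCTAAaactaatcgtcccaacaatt
The FPKM of MT-ATP8 was 1.32 times that of MT-ATP6 in DMSO, 1.34 times in JQ1, 1.28 times in DMSO + PHA and 1.31 times in JQ1 + PHA. For MT-ND4L over MT-ND4 the ratio was 1.14, 1.10, 1.03 and 1.06. The shorter gene of each pair was thus the higher one per length in every library. The ratio varied less for MT-ATP8 over MT-ATP6 (1.28 to 1.34) than for MT-ND4L over MT-ND4 (1.03 to 1.14).

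JQ1 was compared with DMSO once without PHA and once with it, and these comparisons share no library. No mitochondrial gene differed by 2-fold in either: 0 of 15 without PHA, where 13.9% of the 11503 tested genes did, and 0 of 15 with PHA, where 11.7% did. At 1.5-fold the count was 0 without PHA, against 34.1% of tested genes, and 1 with PHA, MT-RNR1, against 29.5%. The median log2 ratio of the 15 genes was -0.05 without PHA and 0.07 with it, beside -0.01 and -0.02 over all tested genes. The mitochondrial genes therefore lay within a narrower range than the tested genes, and the differences described next are below 2-fold.

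The same genes were on the same side of 0 in both JQ1 comparisons for 12 of 15. The genes that were higher in the JQ1 library both without and with PHA numbered 7: MT-CO1, MT-CO2, MT-CO3, MT-ND4L, MT-ND4, MT-ND5 and MT-CYB. Those that were lower both times numbered 5: MT-RNR1, MT-RNR2, MT-ND1, MT-ND2 and MT-ND6. Only MT-ATP8, MT-ATP6 and MT-ND3 had log2 ratios of opposite sign, all between -0.15 and 0.07. As shares of the counts on the 15 genes alone, the values with PHA of these 3 genes turned below 0, to -0.07, -0.11 and -0.13, and all 15 genes then had the same sign in both comparisons. MT-CO3 without PHA was then at only 0.004. Across the 13 mRNA genes, the log2 ratios without PHA and those with it had a Pearson's r of 0.995 and a Spearman's rho of 0.989. Across all 15 genes they were 0.888 and 0.961. These correlations describe 15 genes of 1 genome, several of them on shared transcripts, and genes are not independent replicates. Neither the count nor the correlations were set beside those of all tested genes. Such agreement is therefore not shown to be particular to the mitochondrial genes.

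**Figure D3:**
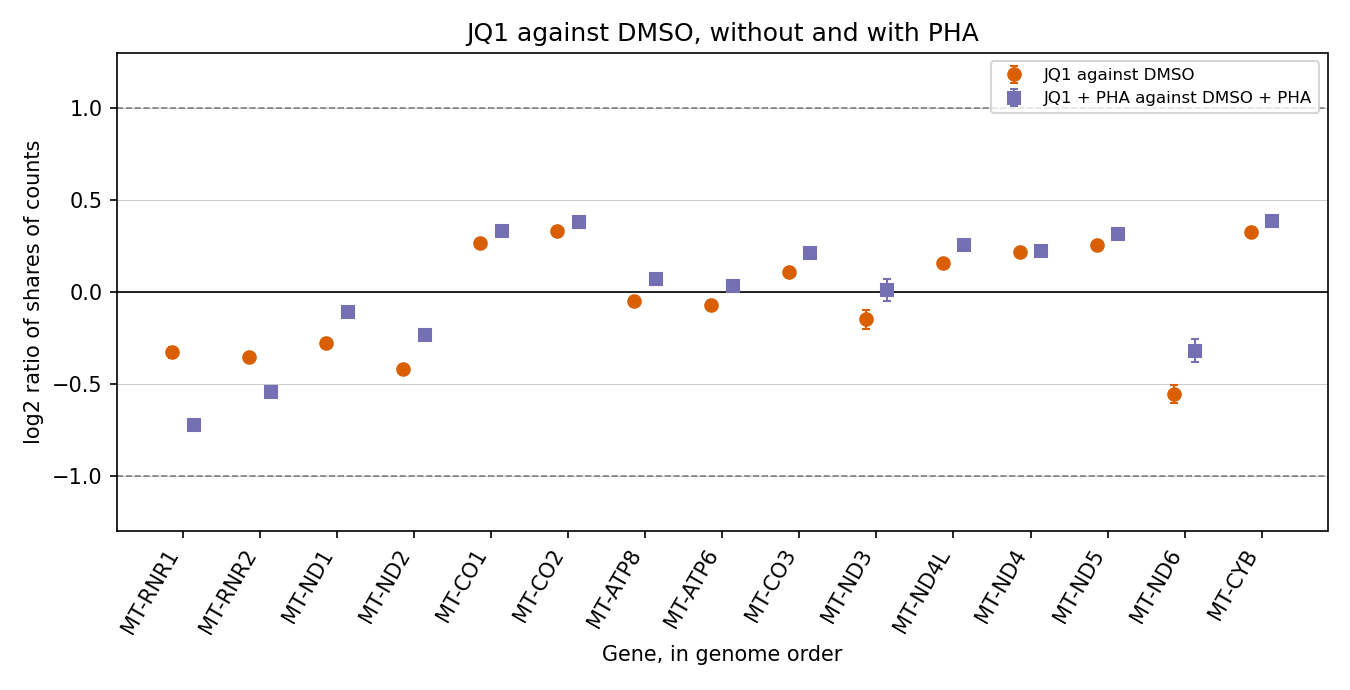
log2 ratio of the share of counts in the JQ1 library to that in its DMSO partner, for the 15 genes in genome order, without PHA (circles) and with PHA (squares), 1 library per condition. Bars are 95% intervals of counting error, often smaller than the symbol, and dashed lines mark 2-fold. The first 4 genes and MT-ND6 lie below 0 in both comparisons, and 7 genes from MT-CO1 to MT-CYB lie above 0 in both.

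The rRNAs showed the largest gap between JQ1 and DMSO when PHA was present. MT-RNR1 (chrM:648-1601, strand +), the 12S rRNA of the small ribosomal subunit, had 1146 FPKM in DMSO, 913 in JQ1, 1569 in DMSO + PHA and 951 in JQ1 + PHA. Its log2 ratio with JQ1 was -0.33 (-0.36 to -0.30) without PHA and -0.72 (-0.75 to -0.69) with PHA. MT-RNR2 (chrM:1671-3229, strand +), the 16S rRNA of the large subunit, had 3405, 2671, 4230 and 2900 FPKM, which gave log2 ratios of -0.35 (-0.36 to -0.34) and -0.54 (-0.56 to -0.53). For both rRNAs, the 2 JQ1 libraries were the lowest and the DMSO + PHA library the highest. The ratio of MT-RNR1 to MT-RNR2 in FPKM was 0.337, 0.342, 0.371 and 0.328, highest in DMSO + PHA and lowest in JQ1 + PHA.

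Complex IV, cytochrome c oxidase, takes its catalytic core from MT-CO1, MT-CO2 and MT-CO3, and all 3 genes were higher with JQ1 in both comparisons. MT-CO1 (chrM:5904-7445, strand +) had 7792 FPKM in DMSO, 9366 in JQ1, 7384 in DMSO + PHA and 9296 in JQ1 + PHA, which gave log2 ratios of 0.27 (0.26 to 0.27) and 0.33 (0.32 to 0.34). MT-CO2 (chrM:7586-8269, strand +) had 7525, 9483, 7507 and 9782 FPKM, and log2 ratios of 0.33 (0.32 to 0.35) and 0.38 (0.37 to 0.39). The 2 DMSO libraries were nearly level for MT-CO2 and both JQ1 libraries stood above them. MT-CO3 (chrM:9207-9990, strand +) had 7491, 8066, 7279 and 8429 FPKM, and smaller log2 ratios of 0.11 (0.10 to 0.12) and 0.21 (0.20 to 0.22). As a share of the counts on the mitochondrial genes alone, MT-CO3 was at 0.004 without PHA and 0.070 with PHA. Summed over the 3 genes, the log2 ratio was 0.24 (0.24 to 0.25) without PHA and 0.31 (0.31 to 0.32) with PHA.

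Complex III takes cytochrome b, its electron-carrying core, from MT-CYB (chrM:14747-15887, strand +), which had 3876 FPKM in DMSO, 4857 in JQ1, 3941 in DMSO + PHA and 5149 in JQ1 + PHA. The log2 ratio with JQ1 was 0.33 (0.31 to 0.34) without PHA and 0.39 (0.37 to 0.40) with PHA. These were close to the values of MT-CO2 and, with it, were the highest ratios of the 15 genes in each comparison.

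Complex I, the NADH dehydrogenase, takes 7 membrane subunits from this genome, and their values lay on both sides of 0 with JQ1. MT-ND1 (chrM:3307-4262, strand +) had 2058 FPKM in DMSO, 1697 in JQ1, 2012 in DMSO + PHA and 1870 in JQ1 + PHA, with log2 ratios of -0.28 (-0.30 to -0.26) and -0.11 (-0.13 to -0.08). MT-ND2 (chrM:4470-5511, strand +) had 2326, 1744, 2265 and 1924 FPKM, with log2 ratios of -0.42 (-0.44 to -0.40) and -0.24 (-0.26 to -0.22). Both were highest in DMSO and lowest in JQ1. MT-ND4L, with 7105, 7940, 7041 and 8416 FPKM, was higher with JQ1 at log2 ratios of 0.16 (0.14 to 0.18) and 0.26 (0.24 to 0.28). MT-ND4 had 6220, 7233, 6813 and 7950 FPKM and a log2 ratio of 0.22 in both comparisons, with intervals of 0.21 to 0.23. MT-ND5 (chrM:12337-14148, strand +) had 1583, 1894, 1609 and 2003 FPKM, with log2 ratios of 0.26 (0.24 to 0.28) and 0.32 (0.30 to 0.33). MT-ND3 (chrM:10059-10404, strand +) had 924, 834, 736 and 742 FPKM, and its log2 ratio was -0.15 (-0.20 to -0.10) without PHA. With PHA it was 0.01 (-0.05 to 0.07), an interval that includes 0, so no difference was detectable for MT-ND3 at this depth when PHA was present. Summed over the 7 genes, the log2 ratio of complex I was 0.08 (0.08 to 0.09) and 0.15 (0.15 to 0.16).

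The membrane part of ATP synthase takes MT-ATP6, part of the proton channel, and the small subunit of MT-ATP8 from this genome, and their log2 ratios with JQ1 stayed within 0.1 of 0. The log2 ratio of MT-ATP8 was -0.05 (-0.07 to -0.03) without PHA and 0.07 (0.06 to 0.09) with PHA. For MT-ATP6, with 10647 FPKM in DMSO, 10132 in JQ1, 10760 in DMSO + PHA and 11015 in JQ1 + PHA, it was -0.07 (-0.08 to -0.06) and 0.03 (0.02 to 0.04). The sign differed between the comparisons, but all 4 differences lay between -4.84% and 5.12% of the level. As shares of the counts on the 15 genes alone, the values with PHA were -0.07 for MT-ATP8 and -0.11 for MT-ATP6, so their direction with PHA turned with the scaling.

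MT-ND6 (chrM:14149-14673, strand -) is the 1 gene of the 15 coded on the other strand, and it was the lowest gene in every library. It encodes a membrane subunit of complex I, and its mRNA is known to lack the poly(A) tail of the other mitochondrial mRNAs. It had 755 FPKM (738 to 773) in DMSO, 514 (501 to 529) in JQ1, 438 (426 to 451) in DMSO + PHA and 352 (340 to 364) in JQ1 + PHA. No 2 of these intervals overlap, and the untreated DMSO library was the highest. The log2 ratio with JQ1 was -0.55 (-0.60 to -0.50) without PHA and -0.32 (-0.38 to -0.25) with PHA. MT-ND6 was the lowest ratio of the 15 genes without PHA, and with PHA only the rRNAs were lower.

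The 3′ end of MT-ND6 touches the 3′ end of MT-ND5, and this junction is shown because reads of both strands can fall there. The start of MT-ND6, away from the junction, is shown for its bases on the minus strand. The line for MT-ND6 start holds its first 60 bases on the minus strand (chrM:14614-14673), with the start codon in capitals. The line for ND5/ND6 junction holds chrM:14119-14178 on the plus strand, with the stop codon of MT-ND5 in capitals.
MT-ND6 start: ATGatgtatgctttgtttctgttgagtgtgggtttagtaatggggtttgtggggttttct
ND5/ND6 junction: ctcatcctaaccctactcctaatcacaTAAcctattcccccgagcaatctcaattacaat
On the minus strand, MT-ND6 is rich in G, which made up 35.6% of its bases, against 6.28% to 19.0% of the coding strand of the other genes. Whether strand was used in the counting is not given in the sources used here. Without it, RNA of MT-ND6 and RNA copied from the opposite strand of the same stretch, which heavy-strand transcripts cross between MT-ND5 and MT-CYB, cannot be told apart. In FPKM, MT-ND6 over its neighbour MT-ND5 was 0.477 in DMSO, 0.272 in JQ1, 0.272 in DMSO + PHA and 0.176 in JQ1 + PHA. The libraries with a single treatment thus had a like, lower ratio than DMSO, and the library with both treatments had the lowest.

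PHA was compared with no PHA once in DMSO and once in JQ1, and these comparisons share no library with each other, though each shares its libraries with the JQ1 comparisons. Again 0 of 15 genes differed by 2-fold, beside 3.29% of tested genes in DMSO and 2.07% in JQ1. At 1.5-fold there was 1 gene in DMSO, MT-ND6, beside 9.41% of tested genes, and 0 in JQ1, beside 5.63%. The median log2 ratio of the 15 genes was -0.01 in DMSO and 0.08 in JQ1, beside -0.006 and -0.002 over all tested genes. The log2 ratios of most mRNAs lay near 0. MT-ND3 and MT-ND6 lay below the other genes in both comparisons, and the rRNAs lay above the mRNAs in DMSO but among them in JQ1.

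**Figure D4:**
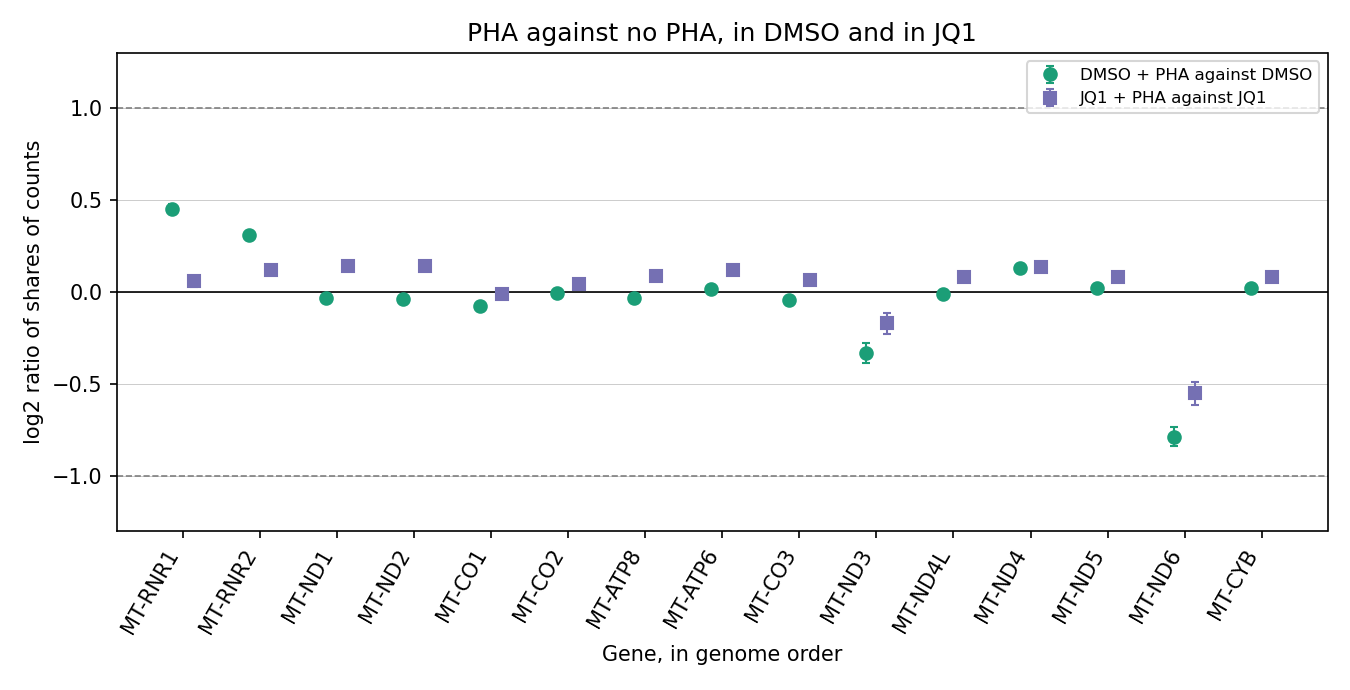
log2 ratio of the share of counts with PHA to that without it, for the 15 genes in genome order, in DMSO (circles) and in JQ1 (squares), 1 library per condition. Bars are 95% intervals of counting error, often smaller than the symbol, and dashed lines mark 2-fold. MT-RNR1 and MT-RNR2 lie at 0.45 and 0.31 in DMSO but at 0.06 and 0.12 in JQ1, and MT-ND6 lies lowest in both.

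The log2 ratio of MT-ND6 with PHA was -0.79 (-0.84 to -0.73) in DMSO and -0.55 (-0.61 to -0.49) in JQ1. Of all tested genes, 2.104% had a lower ratio in DMSO and 3.36% in JQ1. MT-ND3 was lower as well, with -0.33 (-0.38 to -0.27) in DMSO and -0.17 (-0.23 to -0.11) in JQ1. MT-ND6 and MT-ND3 have the lowest levels of the 15 genes, and they were the only genes past a log2 ratio of -0.1 in either PHA comparison.

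Both rRNAs were higher with PHA. In DMSO the log2 ratio was 0.45 (0.43 to 0.48) for MT-RNR1 and 0.31 (0.30 to 0.33) for MT-RNR2. In JQ1 it was 0.06 (0.03 to 0.09) and 0.12 (0.10 to 0.13). Summed, the rRNAs had a log2 ratio of 0.34 (0.33 to 0.35) in DMSO and 0.11 (0.10 to 0.12) in JQ1. The gap between these values could not be tested across cultures.

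Among the other mRNAs, the log2 ratios with PHA lay between -0.08 and 0.13 in DMSO and between -0.01 and 0.14 in JQ1. MT-ND4 was the highest of them in DMSO, at 0.13 (0.12 to 0.14), and was 0.14 (0.13 to 0.15) in JQ1. In JQ1, MT-ND1 and MT-ND2 were at 0.14 each, where in DMSO they were at -0.03 and -0.04. For MT-CO2 and MT-ND4L in DMSO, the intervals of -0.02 to 0.01 and -0.03 to 0.01 include 0. The sum of the 13 mRNAs gave -0.006 (-0.009 to -0.002) in DMSO, a value so near 0 that centring on the median gene turned it to 0.001, and 0.07 in JQ1. As shares of the counts on the 15 genes alone, MT-ATP6, MT-ND5 and MT-CYB in DMSO turned from 0.02 each to -0.02, -0.01 and -0.01, and MT-RNR1, MT-CO2 and MT-CO3 in JQ1 to -0.01, -0.03 and -0.01.

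Counted by intervals of counting error that leave out 0, JQ1 without PHA gave 7 higher and 8 lower genes, beside 36.9% and 38.7% of tested genes. With PHA it gave 9 higher and 5 lower, beside 34.6% and 38.2%. PHA in DMSO gave 6 higher and 7 lower, beside 24.7% and 25.1%, and PHA in JQ1 gave 12 higher and 3 lower, beside 15.6% and 15.7%. Counts on these genes are so many that 12 of 15 had such an interval in all 4 comparisons, so this count describes depth and not the size of a difference.

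Over the heavy-strand genes, position along the genome had higher correlations with the JQ1 ratios than length or GC content had. The 4 genes nearest the start of heavy-strand transcription, MT-RNR1, MT-RNR2, MT-ND1 and MT-ND2, had a median log2 ratio of -0.34 without PHA and -0.39 with PHA, and all 4 were below 0 each time. The 5 genes from MT-CO1 to MT-CO3 had medians of 0.11 and 0.21, and the 5 heavy-strand genes from MT-ND3 to MT-CYB had medians of 0.22 and 0.26. These blocks were drawn after the values had been seen. Over the 14 heavy-strand genes, Pearson's r between start position and log2 ratio was 0.754 without PHA and 0.822 with PHA, and Spearman's rho was 0.626 and 0.684. Without the rRNAs, over 12 genes, r was 0.633 and 0.628 and rho 0.448 and 0.497. With MT-ND6 added to these, over all 13 mRNA genes, r was only 0.214 and 0.224, and over all 15 genes it was 0.420 and 0.623. For PHA, r with start position was -0.507 in DMSO and -0.173 in JQ1 over the 14 genes, and rho was -0.029 and -0.103. Without the rRNAs, over 12 genes, r was 0.162 and -0.156 and rho 0.545 and -0.217, so the sign in DMSO turned. With gene length, r for the JQ1 comparisons over the 14 genes was 0.123 and -0.044, and with GC content it was 0.307 and 0.188. Over the 12 mRNA genes these were 0.334 and 0.291 with length and 0.347 and 0.349 with GC content, with rho from 0.336 to 0.364. The points share libraries and transcripts, and the genes differ in base composition too, so these values are a description only.

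Nuclear DNA holds many old copies of mitochondrial sequence, and a read from a mitochondrial RNA can align to such a copy instead. Of 365 nuclear pseudogenes with names of this kind, 68 had a count in at least 1 library and 9 had more than 3 counts in every library. Their counts summed to 20052 in DMSO, 19281 in JQ1, 20707 in DMSO + PHA and 19897 in JQ1 + PHA, which is 1.46% to 1.70% of the counts on the 15 genes. MTATP6P1 and MTND2P28, which lie close together on chromosome 1, took 97.2% to 98.4% of them.

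The copies are shown beside their parents because the bases that differ, in capitals, are all that tells their reads apart. Each line reads 5′ to 3′ on the plus strand of GRCh38. MTATP6P1 is at chr1:633696-634376 and differs from MT-ATP6 at 10 of 681 bases, with a longest identical run of 141 bases. Its first 207 bases (chr1:633696-633902) are given with those of MT-ATP6 (chrM:8527-8733). MTATP8P1 (chr1:633535-633741) differs from MT-ATP8 (chrM:8366-8572) at 5 of 207 bases. MTND2P28 is at chr1:629640-630683 and differs from MT-ND2 at 17 bases, with a longest identical run of 266 bases. Its first 300 bases (chr1:629640-629939) are given with those of MT-ND2 (chrM:4470-4769).
MT-ATP6: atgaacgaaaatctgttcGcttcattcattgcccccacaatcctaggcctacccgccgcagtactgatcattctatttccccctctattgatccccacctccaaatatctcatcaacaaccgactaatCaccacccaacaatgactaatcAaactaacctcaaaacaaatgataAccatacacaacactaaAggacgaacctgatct
MTATP6P1: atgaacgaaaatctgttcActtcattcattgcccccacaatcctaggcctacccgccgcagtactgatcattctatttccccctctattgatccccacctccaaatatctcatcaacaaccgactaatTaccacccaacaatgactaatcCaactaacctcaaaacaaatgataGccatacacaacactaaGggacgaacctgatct
MT-ATP8: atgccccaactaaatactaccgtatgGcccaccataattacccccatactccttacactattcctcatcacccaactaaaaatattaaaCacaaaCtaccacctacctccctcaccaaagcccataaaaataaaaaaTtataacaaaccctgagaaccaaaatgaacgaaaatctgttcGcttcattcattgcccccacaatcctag
MTATP8P1: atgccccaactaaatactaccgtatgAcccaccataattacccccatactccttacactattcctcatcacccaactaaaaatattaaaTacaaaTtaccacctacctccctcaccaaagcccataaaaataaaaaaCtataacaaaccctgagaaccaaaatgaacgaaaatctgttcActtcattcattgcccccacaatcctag
MT-ND2: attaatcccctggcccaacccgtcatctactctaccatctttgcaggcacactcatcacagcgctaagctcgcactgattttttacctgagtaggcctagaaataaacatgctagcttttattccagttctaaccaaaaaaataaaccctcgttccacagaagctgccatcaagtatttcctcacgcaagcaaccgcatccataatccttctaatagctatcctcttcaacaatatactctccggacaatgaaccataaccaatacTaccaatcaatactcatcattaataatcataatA
MTND2P28: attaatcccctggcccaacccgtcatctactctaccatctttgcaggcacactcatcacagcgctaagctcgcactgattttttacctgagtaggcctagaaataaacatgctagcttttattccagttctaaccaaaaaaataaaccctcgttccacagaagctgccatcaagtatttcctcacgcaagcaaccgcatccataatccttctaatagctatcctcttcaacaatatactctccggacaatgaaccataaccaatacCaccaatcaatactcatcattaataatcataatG
MTATP6P1 had 15061 counts in DMSO, 15057 in JQ1, 15615 in DMSO + PHA and 15789 in JQ1 + PHA, which is between 10.8% and 11.3% of the counts of MT-ATP6. MTND2P28 had 4666, 3693, 4733 and 3755 counts, or 10.2%, 10.3%, 10.2% and 10.1% of those of MT-ND2. These 2 copies thus stayed near a fixed share of their parents. The log2 ratio of MTND2P28 with JQ1 was -0.40 (-0.46 to -0.34) without PHA and -0.25 (-0.32 to -0.19) with PHA, next to -0.42 and -0.24 for MT-ND2. Adding the copy to its parent left these at -0.41 and -0.24. For MTATP6P1 the log2 ratios with JQ1 were -0.07 (-0.10 to -0.03) and 0.10 (0.06 to 0.13), next to -0.07 and 0.03 for MT-ATP6. With PHA the copy thus lay above its parent, and adding it to the parent gave 0.04. MTATP8P1, which overlaps MTATP6P1 and was chosen after its values were seen, had 1, 12, 13 and 7 counts, under 0.03% of those of MT-ATP8. For the other genes the best copies held little: MTCO1P12 had 40 to 62 counts and MTND6P4, the copy of MT-ND6 on chromosome 5, had 15 to 21, which is 0.281% to 0.495% of its parent. MTRNR2L12, a copy of part of MT-RNR2 on chromosome 3, had 16 to 21 counts. MTND4P12, also on chromosome 5, stood out with 318 counts in JQ1 beside 167 in DMSO, 166 in DMSO + PHA and 167 in JQ1 + PHA, which is 0.0819% to 0.162% of the counts of MT-ND4. It differs from MT-ND4 at 58 bases and lies on the opposite strand, and its log2 ratio of 0.86 (0.59 to 1.14) in JQ1 against DMSO was not shared by MT-ND4.

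The nuclear genes that copy, transcribe, process and degrade mitochondrial DNA and RNA mostly lay below 0 with JQ1. Of 48 such genes, 46 passed the filter on low values. Of the 46, 13 had a log2 ratio above 0 without PHA and 14 with PHA, beside 5664 and 5577 of the 11503 tested genes. Counting intervals lay below 0 for 32 and 31 of the 46, beside 38.7% and 38.2% of tested genes. They lay above 0 for 7 and 9, beside 36.9% and 34.6%. Of the genes of RNA stability, polyadenylation and decay, 1 of 14 was above 0 each time, with medians of -0.55 and -0.43. Of the genes of RNA processing and modification, 1 of 9 and 3 of 9 were above 0, with medians of -0.55 and -0.57. The 9 replication genes lay on both sides, with 5 above 0 and a median of 0.03 without PHA and 4 above 0 and a median of -0.07 with PHA. Of 8 transcription genes, 3 and 4 were above 0, with medians of -0.20 and -0.03. Without PHA, 7 of the 46 were past 2-fold and 0 of these were higher, which is 15.2% beside 13.9% of tested genes past 2-fold in either direction, and the median log2 ratio was -0.38. With PHA, 6 were past 2-fold and 0 of these were higher, which is 13.04% beside 11.7%, and the median was -0.37. These shares past 2-fold are near those of all tested genes. With PHA against no PHA, 1 gene was past 2-fold in DMSO, where it was higher, beside 3.29% of tested genes, and 0 in JQ1, beside 2.07%, and the medians were -0.09 and -0.02.

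Of the transcription genes, TFB2M had 19.6 FPKM in DMSO, 6.02 in JQ1, 17.2 in DMSO + PHA and 6.07 in JQ1 + PHA. Its log2 ratio with JQ1 was -1.70 (-1.93 to -1.48) without PHA and -1.50 (-1.74 to -1.27) with PHA, and the JQ1 libraries stood apart from the others. POLRMT, at 3.33 to 4.96 FPKM, had -0.57 (-0.74 to -0.41) and -0.24 (-0.41 to -0.07). TFAM, at 14.04 to 16.5 FPKM, had -0.23 (-0.32 to -0.14) and -0.18 (-0.27 to -0.09). TWNK, the helicase of mitochondrial DNA replication, had -1.63 (-1.80 to -1.46) and -1.76 (-1.94 to -1.57).

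LRPPRC and SLIRP form the complex that keeps mitochondrial mRNAs stable and polyadenylated. LRPPRC, at 16.5 to 22.2 FPKM, had log2 ratios of -0.41 (-0.47 to -0.35) and -0.37 (-0.43 to -0.31) with JQ1. SLIRP, at 2.49 to 3.91 FPKM, had -0.61 (-0.87 to -0.35) and -0.63 (-0.90 to -0.37). PNPT1, a subunit of the RNase that degrades mitochondrial RNA, was 2-fold lower both times, with -1.27 (-1.37 to -1.18) and -1.25 (-1.34 to -1.15). None of these 3 differed by more than 0.1 with PHA on the log2 scale.

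PUS1, which modifies tRNAs, had log2 ratios of -1.40 (-1.65 to -1.16) and -1.40 (-1.65 to -1.15) with JQ1. TRIT1, another tRNA-modifying enzyme, had 454 counts in JQ1, while the DMSO, DMSO + PHA and JQ1 + PHA libraries had 920, 986 and 797. Its log2 ratio with JQ1 was -1.08 (-1.25 to -0.92) without PHA and -0.23 (-0.36 to -0.09) with PHA. Nuclear regulators of mitochondrial genes, of which 6 passed the filter, lay on both sides of 0 with JQ1, with medians of -0.003 without PHA and -0.31 with it. The transcription factor NRF1 had 0.67 and 0.69 and GABPB1 had 0.43 and 0.24, both chosen after their values were seen, while the coactivators PPARGC1B and PPRC1 were lower. PPARGC1B had -2.48 (-2.70 to -2.27) and -2.39 (-2.62 to -2.17), and PPRC1 had -1.53 (-1.66 to -1.40) and -1.56 (-1.70 to -1.42). ESRRA, a nuclear receptor that acts with such coactivators, was the 1 gene of the list that was 2-fold higher with PHA in DMSO, at 1.12 (0.85 to 1.41), and it was at 0.43 (0.14 to 0.73) in JQ1.

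The nuclear-encoded subunits of the respiratory chain and ATP synthase, 79 genes that all passed the filter, had median log2 ratios of -0.16 and -0.14 with JQ1. Of these, 0 were 2-fold higher in either comparison, and 3 without PHA and 2 with PHA were 2-fold lower. These are 3.80% and 2.53% of the list, below the 13.9% and 11.7% of tested genes past 2-fold. NDUFC1, a complex I subunit, had -1.24 (-1.56 to -0.92) and -1.23 (-1.57 to -0.90), and ATP5MC1, which encodes subunit c of ATP synthase, had -1.21 (-1.39 to -1.02) and -1.17 (-1.38 to -0.97). By complex, the medians without and with PHA were -0.23 and -0.15 for the 37 genes of complex I and -0.33 and -0.39 for the 9 of complex III. They were 0.09 and 0.06 for the 12 of complex IV and -0.19 and -0.15 for the 17 of ATP synthase, and -0.01 and -0.06 for the 4 of complex II, which has no mitochondrial gene. The nuclear genes of complex IV went both ways: 9 of 12 were above 0 without PHA and 7 of 12 with it. Without PHA the counting intervals of 5 lay above 0 and of 2 below, beside 36.9% and 38.7% of tested genes. With PHA 3 lay above 0 and 3 below, beside 34.6% and 38.2%. COX6A1, at 0.47 and 0.54, was higher both times, and NDUFA4 was at 0.57 and -0.06. COX5A, at -0.28 and -0.34, and COX6B1, at -0.46 and -0.15, were lower. These genes were chosen after their values were seen.

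The proteins that surround the mitochondrial rRNAs in the ribosome come from nuclear genes. They were taken here by name, as MRPL or MRPS with a number and DAP3, which gave 78 genes, of which 77 passed the filter. Their median log2 ratio with JQ1 was -0.54 without PHA and -0.47 with PHA, next to -0.35 and -0.58 for the summed counts of the 2 rRNAs. Without PHA, 16 were 2-fold lower and 1 higher, which is 22.1% beside 13.9% of tested genes. With PHA 5 were lower and 1 higher, which is 7.79% beside 11.7% and so below the share of all tested genes. MRPL15 of the large subunit had -1.51 (-1.68 to -1.34) and -1.26 (-1.46 to -1.07), MRPL23 had -1.89 (-2.36 to -1.45) and -1.31 (-1.86 to -0.78), and MRPS12 of the small subunit had -1.39 (-1.70 to -1.09) and -1.16 (-1.49 to -0.84). With PHA the median was -0.16 in DMSO and -0.04 in JQ1, while the summed rRNAs were at 0.34 and 0.11. The lists are described by counts and medians only, and nothing was tested between them.

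**Figure D5:**
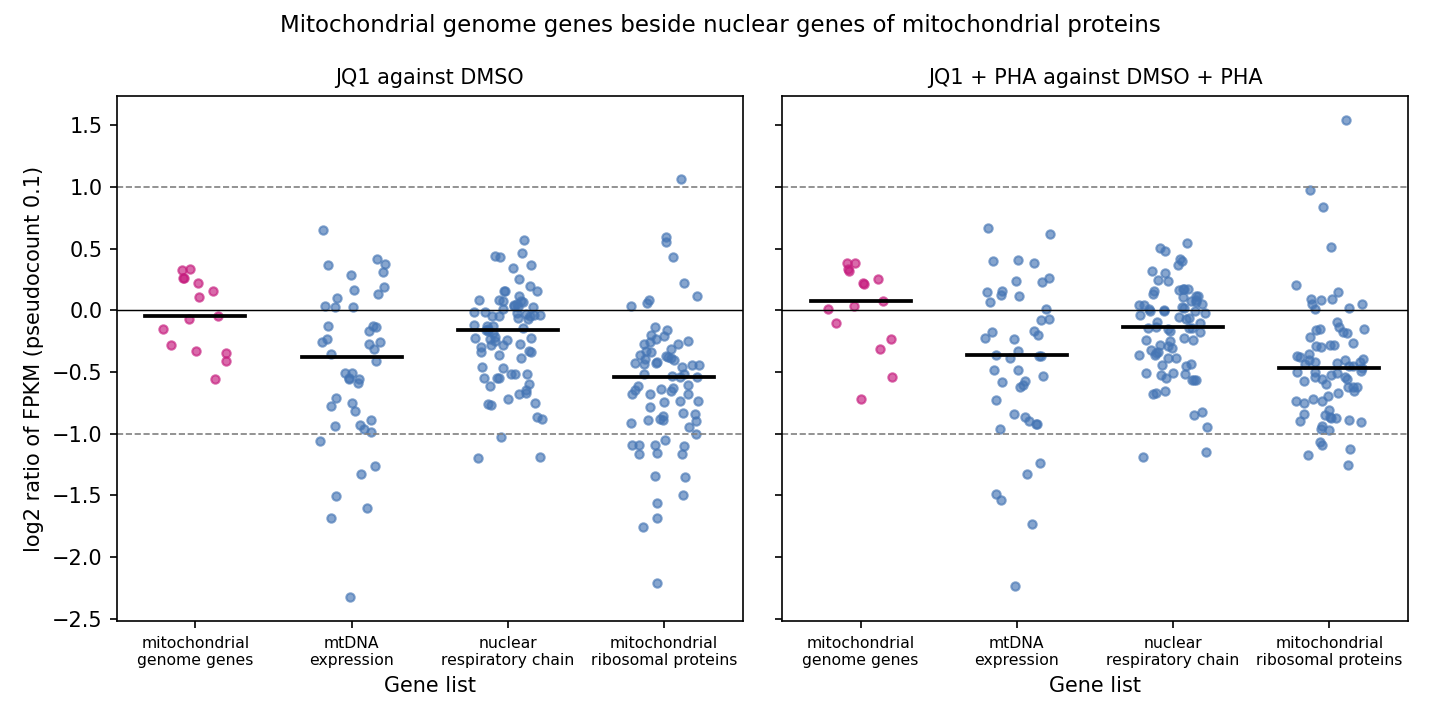
log2 ratio of (FPKM + 0.1) for JQ1 against DMSO without PHA (left) and with PHA (right), with 1 point per gene, 1 library per condition, black bars at the list medians and dashed lines at 2-fold. The 15 mitochondrial genome genes lie within 2-fold in both panels, while the lowest of the nuclear genes of mitochondrial DNA expression lies past -2 in both.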

How the data were processed

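RNA-seq was done on Jurkat cells in 4 conditions with 1 library each. The authors extracted RNA with TRIzol and sequenced on a HiSeq2500. The library kit is named as VAHTS Universal V6 per the labels and as a stranded mRNA kit in the study's methods. Hisat2 2.0.4 is named in the labels and methods, whereas the submitters' processing notes name TopHat2 2.0.9, Cufflinks 2.1.1 and GRCh38. The counter, its use of strand and of reads with several alignments, and the annotation release are not given in the sources used here. The deposited values are counts of reads per gene, without normalization, and FPKM, which the authors scaled by gene length and by the library's total count. For the 15 genes, the length implied by FPKM equals the annotated span.

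Genes were joined on their Ensembl identifier. The log2 ratio of a gene is that of its shares of all counts, with a 95% exact (Clopper-Pearson) interval. Shares in 1 library have exact (Clopper-Pearson) intervals too. All intervals cover counting error only. Genes past 2-fold were counted on log2(FPKM + 0.1), which understates the difference of low genes, among the 11503 genes whose FPKM averaged 1 or more over the libraries, and 3 counts were taken as the floor. No test was made, since no condition had a replicate. The intervals were checked on simulated counts for JQ1 against DMSO that held counting error only. Such a check cannot bear on the spread between cultures, and the other steps were not simulated.

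The members and lists were chosen with earlier results of these data known. All MT- genes are named. Of the nuclear genes of mitochondrial DNA expression, POLRMT, TFAM, TFB2M, LRPPRC, SLIRP and those past 2-fold in any comparison are named. Of the respiratory chain and ribosomal lists, at most 5 are named that were past 2-fold in the same direction in both JQ1 comparisons, by the smaller ratio. Of the pseudogenes, the 5 with the most counts are named, with a tie for the last place. Sequences were read from GRCh38, and pseudogenes were aligned to their parents with biopython 1.88.

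Alternatives were the scaling (total without these genes, TMM of edgeR 4.0.16, size factors of DESeq2 1.42.0, the median gene, counts on these genes alone), a pseudocount of 1, filters at 0.1 and 5 FPKM or none, 1.5-fold, and the sum without rRNAs or with pseudogenes. edgeR and DESeq2 gave scaling factors only. The tools were Python 3.11.15, numpy 2.4.6, pandas 2.3.3, scipy 1.17.1, matplotlib 3.10.9 and R 4.3.3.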

Additional observations from a re-analysis of the deposited data

Results flagged for a closer look

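The values below had opposite signs under the same contrast in the absence and presence of the other treatment, and with 1 library per condition the difference was not tested. With JQ1, the log2 ratio of MT-ATP8 was -0.05 without PHA and 0.07 with it, and that of MT-ATP6 was -0.07 and 0.03. With PHA, the log2 ratio was -0.03 in DMSO and 0.14 in JQ1 for MT-ND1, and -0.04 and 0.14 for MT-ND2. With PHA it was also -0.03 in DMSO and 0.09 in JQ1 for MT-ATP8, and -0.04 and 0.06 for MT-CO3. All of these are small beside the 2-fold threshold.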

How the results depend on the processing

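No paired analysis was possible because each condition had 1 library and no result comes from a test; the spread between cultures is unknown, and depth limited little here, since the lowest count on a member was 3437. Leaving out the 2 rRNA genes gave shares of 5.66% in DMSO, 6.26% in JQ1, 5.65% in DMSO + PHA and 6.57% in JQ1 + PHA, and adding the nuclear pseudogenes gave 6.38%, 6.83%, 6.52% and 7.18%. The log2 ratio of the summed mRNAs for JQ1 against DMSO was 0.153 with the total without MT- genes, 0.160 with TMM, 0.159 with DESeq2 size factors and 0.158 with median centring. For JQ1 + PHA against DMSO + PHA it was 0.231, 0.243, 0.244 and 0.241. For DMSO + PHA against DMSO it was -0.012 with TMM and turned to 0.001 with median centring. For JQ1 + PHA against JQ1 it was 0.074 with the total without MT- genes and 0.076 with DESeq2 size factors. As shares of the counts on MT- genes alone, the log2 ratios turned to -0.069 for MT-ATP8, -0.107 for MT-ATP6 and -0.130 for MT-ND3 in JQ1 + PHA against DMSO + PHA. In DMSO + PHA against DMSO they turned to -0.018 for MT-ATP6, -0.011 for MT-ND5 and -0.009 for MT-CYB, and in JQ1 + PHA against JQ1 to -0.013 for MT-RNR1, -0.027 for MT-CO2 and -0.009 for MT-CO3. At 1.5-fold, 1 member was past the threshold in JQ1 + PHA against DMSO + PHA and 1 in DMSO + PHA against DMSO, where 0 were at 2-fold. Of the nuclear genes of mitochondrial DNA expression, 18 were past 1.5-fold for JQ1 against DMSO, 17 for JQ1 + PHA against DMSO + PHA and 1 for JQ1 + PHA against JQ1, beside 34.1%, 29.5% and 5.63% of tested genes, and with a pseudocount of 1 the count for DMSO + PHA against DMSO was 0. The shifts follow from the construction of each alternative.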
